A study of Arabidopsis thaliana with 12 samples.

Results

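The SAUR (SMALL AUXIN UP RNA) genes were followed through a root transcriptome of *Arabidopsis thaliana*. A gene was taken as a member where its symbol in the deposited table was SAUR followed by a number, or where its description named the SAUR-like auxin-responsive protein family. These rules found 74 of the 23853 genes of the table, 36 of them by symbol and description, 36 by description alone and 2 by symbol alone. The 2 taken by symbol alone were SAUR79, described as a hypothetical protein, and AT5G01830. The table gives AT5G01830 the symbol SAUR21, but its description is that of an ARM repeat protein. Its RefSeq protein has 674 residues, of which at most 10.7% matched in an alignment with any other member. Identity was counted over the longer protein, so the difference in length alone keeps this share low. The gene was kept as the rule requires, is called AT5G01830 here, and is no evidence about SAUR proteins. SAUR21 here is AT5G18030. The table likewise gives AT1G29510 the symbol SAUR68, and RefSeq names this gene SAUR67, which is used here. Of 80 genes with a SAUR number in RefSeq, 6 (SAUR13, SAUR17, SAUR44, SAUR47, SAUR57 and SAUR73) were not analysed here.

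The study compared roots of 4 groups, each with 3 RNA-seq libraries: *siz1-2* roots treated with 0.5 µM indole-3-acetic acid (IAA, the main natural auxin) for 3 h, *siz1-2* roots on Murashige and Skoog (MS) medium without IAA, Col-0 roots with the same IAA treatment, and Col-0 roots on MS medium. Col-0 is the wild type, and *siz1-2* is 1 T-DNA insertion line in the Col-0 background with a disrupted gene for SIZ1, a ligase that attaches the small protein SUMO to other proteins. The labels call the genotypes Col and siz1, give 7 days of growth (the methods give 8 days), and name IAA as the treatment in a protocol text shared by all 12 libraries. The groups were therefore taken from each library's own genotype and treatment labels. What separates the 3 libraries of a group, separate plants or repeat preparations, is not stated, so p-values measure the spread between libraries, which may be technical.

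SAUR genes form one of the large families of early auxin response genes in plants. Most are short genes without introns and encode small proteins of brief lifetime. In the best known case, that of SAUR19, the protein binds and inhibits phosphatases of the PP2C.D clade, which otherwise remove an activating phosphate from plasma membrane H+-ATPases (AHA proteins), so that the pump acidifies the cell wall and the cell can expand. Many SAUR genes were first studied in hypocotyls and cotyledons, and other members answer to light, ethylene, heat or senescence more than to auxin.

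Values are FPKM, fragments scaled to the exonic length of the gene and to the depth of the library. FPKM multiplied by the RefSeq exonic length fell on whole multiples of a single step in each library: all values that came to 1 to 200 fragments were whole within 0.05 fragments in every library. This gave about 19550000 to 22520000 fragments per library and the number of fragments behind each value, so that the 0.0763 FPKM of SAUR24 in *siz1-2* MS replicate 3, for example, was 1 fragment. SIZ1 had 16.6, 12.8 and 14.1 FPKM in *siz1-2* IAA roots, 14.8, 13.5 and 13.6 FPKM in *siz1-2* MS roots, 21.8, 24.7 and 28 FPKM in Col-0 IAA roots and 26.2, 23.7 and 21.5 FPKM in Col-0 MS roots, lower in all 6 *siz1-2* libraries than in all 6 Col-0 libraries. All 10 root markers checked, among them the root hair gene EXPA7 and the endodermis gene SCR, were above 0 in every library. Col-0 IAA replicate 1 stood apart: for 1848 genes its log2 level differed by over 1 from the average of its companions in the group. In the 11 other libraries this count was 54 to 536. The median of 28 photosynthesis genes that mark green tissue was 34.8 FPKM in *siz1-2* IAA replicate 2 and 43.6 FPKM in Col-0 IAA replicate 1, against 4.48 to 13.0 FPKM in the 10 other libraries.

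The family is compact and much of it stands in arrays. Without AT5G01830, 70 of 73 members had a single coding exon, the proteins had a median of 121 residues (86 to 190), and the median exonic length was 827 bases, against 1672 bases over all genes of the table. There were 31 members in 6 arrays of at least 3 members with no more than 3 other genes between neighbours. The arrays are SAUR61 to SAUR68 on chromosome 1 (8 members), SAUR7, SAUR6 and SAUR12 on chromosome 2, SAUR26 to SAUR29 on chromosome 3, SAUR49, SAUR50 and SAUR1 to SAUR5 (7 members) and SAUR14 to SAUR16 on chromosome 4, and SAUR19 to SAUR24 on chromosome 5 (6 members). The median identity over all pairs of SAUR proteins, counted over the longer protein, was 25.5%, but it was 93.3% (89.0 to 95.6%) within SAUR19 to SAUR24. The first 60 coding bases of these 6 genes are shown because their likeness limits how far reads can be told apart. They are from RefSeq TAIR10.1, each in the sense of its gene, with the 12 positions that differ between any of the 6 in capitals.
SAUR19 (chr5:5963246-5963305, minus strand): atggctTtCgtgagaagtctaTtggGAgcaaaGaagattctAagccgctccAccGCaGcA
SAUR20 (chr5:5966521-5966580, minus strand): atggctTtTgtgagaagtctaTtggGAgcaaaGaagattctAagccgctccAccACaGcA
SAUR21 (chr5:5968527-5968586, plus strand): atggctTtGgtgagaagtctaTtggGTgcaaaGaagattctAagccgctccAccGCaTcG
SAUR22 (chr5:5974904-5974963, minus strand): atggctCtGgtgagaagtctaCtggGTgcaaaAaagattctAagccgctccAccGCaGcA
SAUR23 (chr5:5976030-5976089, plus strand): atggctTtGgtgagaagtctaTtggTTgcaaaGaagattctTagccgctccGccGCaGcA
SAUR24 (chr5:5983840-5983899, plus strand): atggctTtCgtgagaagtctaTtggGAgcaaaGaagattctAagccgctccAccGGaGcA
In all, 14 members shared at least one stretch of 50 exonic bases with another member, among them all of SAUR19 to SAUR24, SAUR63 with SAUR67 and SAUR62 with SAUR75. How the authors' counting placed reads that fit more than 1 of these genes is not stated, and their single values are uncertain.

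Levels were uneven across the family. The 5 members with the highest mean FPKM over the 12 libraries held 50.6% of the mean summed FPKM of the family. SAUR32 (AT2G46690), studied in the apical hook, averaged 80.7 FPKM. SAUR78 (AT1G72430), one of a trio with SAUR76 and SAUR77 that is known from ethylene signalling, averaged 44.9 FPKM, and SAUR55 (AT5G50760) 41.7 FPKM. SAUR37 (AT4G31320) averaged 36.0 FPKM and SAUR76 (AT5G20820) 32.1 FPKM. SAUR78 had 39.0, 49.7 and 53.8 FPKM in *siz1-2* IAA roots, 46.4, 49.5 and 44.1 FPKM in *siz1-2* MS roots, 45.3, 49.7 and 35.3 FPKM in Col-0 IAA roots and 40.0, 42.7 and 43.8 FPKM in Col-0 MS roots. For SAUR78 the IAA and MS libraries overlapped in both genotypes, and on MS the *siz1-2* libraries lay just above those of Col-0. SAUR55 had 30.1, 33.0 and 35.0 FPKM in *siz1-2* IAA roots, 46.1, 52.9 and 41.8 FPKM in *siz1-2* MS roots, 45.6, 56.6 and 31.2 FPKM in Col-0 IAA roots and 43.7, 42.5 and 41.6 FPKM in Col-0 MS roots. Its IAA libraries lay below its MS libraries in *siz1-2* and overlapped them in Col-0, and neither fold change passed the test (−0.51 in *siz1-2*, adjusted p = 0.0582 from limma, and 0.02 in Col-0). Over the 73 members without AT5G01830, the summed FPKM was 419, 471 and 462 in *siz1-2* IAA roots, 448, 456 and 431 in *siz1-2* MS roots, 596, 599 and 484 in Col-0 IAA roots, and 386, 410 and 422 in Col-0 MS roots. In this sum the 3 Col-0 IAA libraries lay above all 9 others.

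Of the 74 members, 43 reached 1 FPKM in 3 or more libraries, which was the condition for a test, and 31 did not. The 31 had a median of 7 fragments, and at most 37, in their highest library. Tests were made with limma on log2(FPKM + 0.5) over the 18743 genes that passed the same filter, a gene was called at an adjusted p under 0.05 (Benjamini-Hochberg), and fold changes are on this scale, which understates the change of low genes. With IAA, 11 members rose and 8 fell in *siz1-2* (AT5G01830 among the 8), where 9.81% of all tested genes rose and 8.06% fell. Centring each library on its median gave 9 members higher and 8 lower in *siz1-2*, and 41.9% instead of 54.9% of all called genes were then higher. In Col-0, 15 members rose and 4 fell, where 9.09% of all tested genes rose and 8.21% fell. Of the 43 members, 11 had no MS library at 1 FPKM and could pass the filter only through their level with IAA, and 7 of these rose in *siz1-2* and 10 in Col-0, which the filter favours. These 11 were SAUR1, SAUR14, SAUR24, SAUR26, SAUR34, SAUR35, SAUR62 and SAUR65 to SAUR68. Among the other 32 members, 4 (12.5%) rose and 8 (25%) fell in *siz1-2*, against 9.30% and 8.14% of all tested genes with an MS library at 1 FPKM. In Col-0, 5 of the 32 (15.6%) rose and 4 (12.5%) fell, against 8.68% and 8.29% of all such genes. There were 10 members called higher and 4 called lower in both genotypes, and 0 called in opposite directions. Of all tested genes, 5.47% were called higher in both, 4.51% lower in both and 6 genes in opposite directions. Of the 32 members with an MS library at 1 FPKM, 3 were called higher and 4 lower in both. Across these 32 the responses in the 2 genotypes had a Pearson r of 0.85, and across all 43, where the filter adds members high with IAA, of 0.93, both as descriptions over genes that are not independent.

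**Figure D1:**
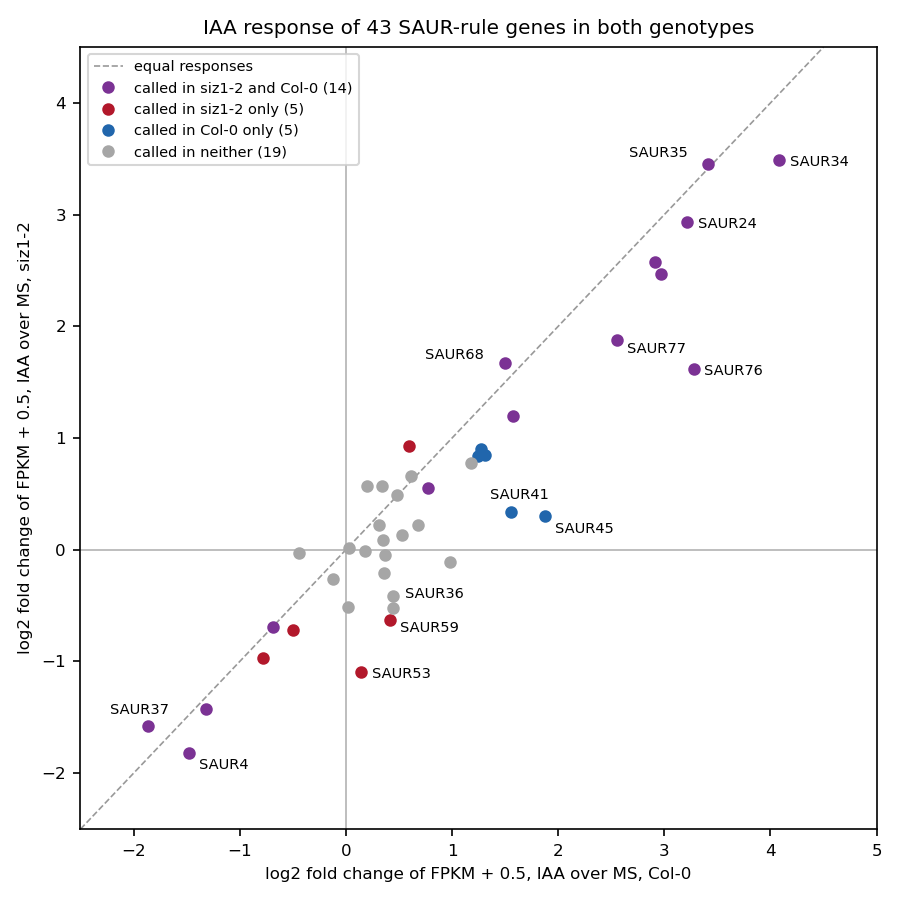
Response of the 43 tested members to IAA, as log2 fold change of FPKM + 0.5 (IAA over MS) in *siz1-2* roots (vertical axis) and Col-0 roots (horizontal axis), 1 point per gene, coloured by the comparisons in which the gene was called. Most points follow the dashed line of equal responses, with SAUR34 at the upper right and SAUR37 and SAUR4 at the lower left, and SAUR76, SAUR45 and SAUR53 lie well below the line. The position of SAUR68, listed at 0 on MS, depends on the 0.5 that was added.

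On the log2(FPKM + 0.5) scale the largest rises in both genotypes were those of SAUR34 and SAUR35, a pair of members outside the arrays to which no specific role is assigned here. Neither had an MS library at 1 FPKM, so both passed the filter only through their level with IAA, which favours such calls. With 0.1 in place of 0.5, or with voom, SAUR24 exceeded both in both genotypes. Across the alternatives in *siz1-2*, SAUR67 and SAUR68 reached 4.46 and 5.04, against at most 4.28 for SAUR34 and 4.41 for SAUR35. In Col-0, SAUR66, SAUR67 and SAUR68 reached 4.98, 4.76 and 4.72, against at most 5.03 for SAUR34 and 4.38 for SAUR35. SAUR34 (AT4G22620, chr4:11907355-11908357 of TAIR10.1, plus strand) had 10.9, 11.5 and 13.8 FPKM in *siz1-2* IAA roots, against 0.487, 0.998 and 0.429 FPKM in *siz1-2* MS roots. In Col-0 it had 18.9, 15.3 and 13.8 FPKM with IAA, against 0.503, 0.366 and 0.541 FPKM on MS, and there was no overlap in either genotype. Its log2 fold change was 3.49 in *siz1-2* (standard error 0.21, adjusted p = 1.39e-07 from limma) and 4.08 in Col-0 (standard error 0.21, adjusted p = 2.89e-08). On MS these levels rest on 8 to 22 fragments per library, and with IAA on 242 to 371. SAUR35 (AT4G12410, chr4:7342800-7343731, minus strand) had 8.94, 11.2 and 11.3 FPKM in *siz1-2* IAA roots, against 0.381, 0.293 and 0.923 FPKM in *siz1-2* MS roots. Its Col-0 values were 9.22, 11 and 11.4 FPKM with IAA, against 0.197, 0.592 and 0.953 FPKM on MS. It rose by 3.46 on the log2 scale in *siz1-2* (adjusted p = 1.74e-06 from limma) and by 3.41 in Col-0 (adjusted p = 1.78e-06), and in both genotypes every IAA library lay above every MS library.

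SAUR76 and SAUR77, relatives of SAUR78 that influence growth and ethylene responses, rose in both genotypes while SAUR78 did not pass the test in either (log2 fold changes of 0.01 in *siz1-2* and 0.03 in Col-0). SAUR76 (chr5:7046747-7047446, minus strand) had 49.0, 50.1 and 56.9 FPKM in *siz1-2* IAA roots, against 21.6, 11.8 and 17.7 FPKM in *siz1-2* MS roots. Col-0 roots had 64.2, 52.7 and 46.2 FPKM with IAA, against 4.65, 4.66 and 6.13 FPKM on MS. The groups did not overlap, and the log2 fold change was 1.62 in *siz1-2* (standard error 0.20, adjusted p = 7.98e-05 from limma) and 3.28 in Col-0 (standard error 0.20, adjusted p = 1.08e-07). SAUR77 (AT1G17345) had 6.89, 6.95 and 7.84 FPKM in *siz1-2* IAA roots, against 2.30, 1.36 and 1.28 FPKM in *siz1-2* MS roots. With IAA its Col-0 libraries had 9.95, 13.1 and 7.24 FPKM, against 1.34, 1.15 and 1.28 FPKM on MS. It rose by 1.88 on the log2 scale in *siz1-2* and by 2.55 in Col-0 (adjusted p = 6.37e-05 and 3.69e-06 from limma).

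In the chromosome 5 array, whose SAUR19 is the member best known for H+-ATPase activation and cell expansion, SAUR24 held 334 of the 488 fragments of the 6 IAA libraries. SAUR24 (AT5G18080) had 3.81, 4.88 and 2.26 FPKM in *siz1-2* IAA roots, against 0, 0 and 0.0763 FPKM in *siz1-2* MS roots. Its Col-0 values were 5.39, 3.41 and 5.14 FPKM with IAA, against 0, 0.147 and 0 FPKM on MS. In fragments this is 53, 67 and 30 against 0, 0 and 1 in *siz1-2*, and 66, 46 and 72 against 0, 2 and 0 in Col-0, so that the array was nearly silent on MS and read in every IAA library. SAUR24 was called higher in *siz1-2* (adjusted p = 4.42e-06 from limma) and in Col-0 (adjusted p = 1.77e-06). It passed the filter only through its level with IAA, which favours such calls. SAUR19 to SAUR23 were below the filter: together they had 12, 39 and 12 fragments in *siz1-2* IAA roots, against 1, 1 and 6 in *siz1-2* MS roots. In Col-0 roots they had 63, 13 and 15 fragments with IAA, against 0, 2 and 11 on MS. All MS fragments of these 5 genes lay on SAUR21. As the sequences above show, these genes differ at few positions, and the division of reads between SAUR24 and its neighbours is uncertain.

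The chromosome 1 array belongs to the SAUR63 clade, which promotes the elongation of hypocotyls and stamen filaments. SAUR66 (AT1G29500) had 3.30, 4.19 and 3.27 FPKM in *siz1-2* IAA roots, against 0.138, 0.329 and 0.247 FPKM in *siz1-2* MS roots, and 5.44, 3.84 and 4.25 FPKM in Col-0 IAA roots, against 0.0947, 0.285 and 0.051 FPKM in Col-0 MS roots. SAUR67 (AT1G29510) had 3.08, 4.07 and 2.95 FPKM in *siz1-2* IAA roots, against 0.109, 0.0557 and 0.292 FPKM in *siz1-2* MS roots, and 6.07, 4.78 and 3.12 FPKM in Col-0 IAA roots, against 0.112, 0.0562 and 0.362 FPKM in Col-0 MS roots. For both genes, every IAA library was above every MS library. The log2 fold changes of SAUR66 were 2.47 in *siz1-2* and 2.96 in Col-0 (adjusted p = 3.22e-06 and 5.54e-07 from limma), and those of SAUR67 were 2.57 and 2.91 (adjusted p = 1.6e-05 and 4.7e-06). SAUR68 (AT1G29490) was listed at 0 in all 6 MS libraries, against 1.01, 1.16 and 1.13 FPKM in *siz1-2* IAA roots (15, 17 and 16 fragments) and 0.686, 1.52 and 0.666 FPKM in Col-0 IAA roots (9, 22 and 10 fragments). It was called higher in *siz1-2* and in Col-0 (adjusted p = 0.000214 and 0.000474 from limma), and no fold is given against 0. SAUR65 rose less, by 1.2 on the log2 scale in *siz1-2* and by 1.57 in Col-0 (adjusted p = 0.012 and 0.00209 from limma). The *siz1-2* call of SAUR65 was lost without *siz1-2* IAA replicate 1 (1.07) or replicate 2 (1.04). SAUR62, known from pollen tube growth, rose by 1.27 in Col-0 (adjusted p = 0.0341 from limma), which was lost without Col-0 MS replicate 2 (1.28) or replicate 3 (1.04). All of SAUR62 and SAUR65 to SAUR68 passed the filter only through their level with IAA, which favours calls of a rise. SAUR61, SAUR63 and SAUR64 were below the filter. SAUR63 itself had 3, 0 and 0 fragments in *siz1-2* IAA roots and 0 in *siz1-2* MS roots, and 10, 0 and 2 fragments in Col-0 IAA roots and 0 in Col-0 MS roots.

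**Figure D2:**
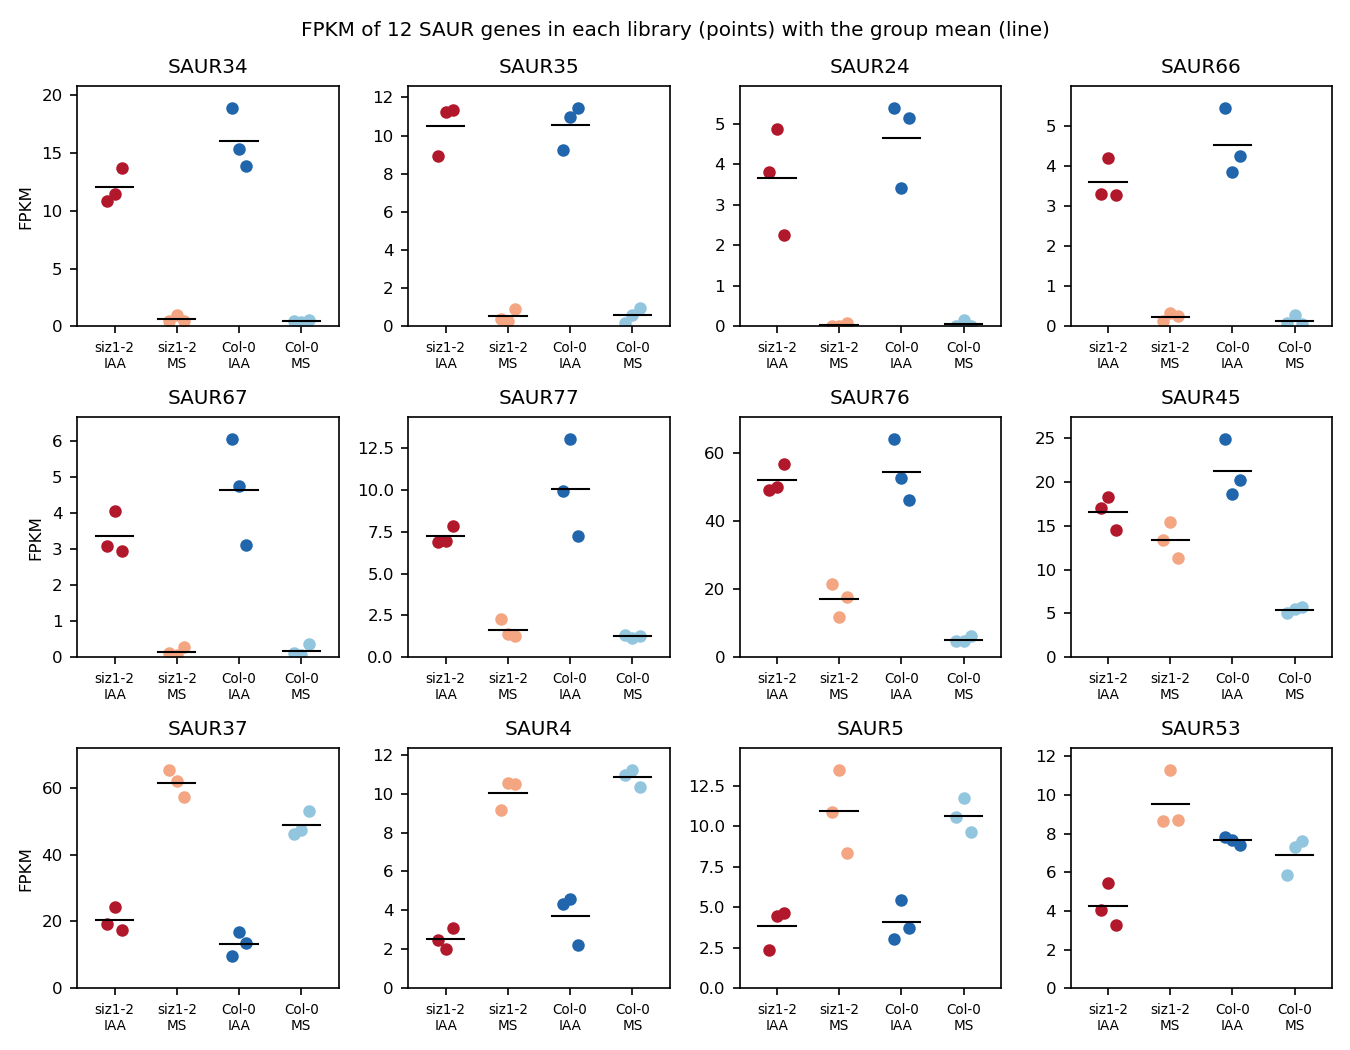
FPKM of 12 SAUR genes in each library, with 1 panel and 1 linear axis per gene, points for the 3 libraries of a group and a line at the group mean. In the panels of SAUR34, SAUR35, SAUR24, SAUR66 and SAUR67 both MS groups lie below 1 FPKM, in those of SAUR37, SAUR4 and SAUR5 both IAA groups lie below both MS groups, and in those of SAUR76 and SAUR45 the *siz1-2* MS group lies between the Col-0 MS and Col-0 IAA groups.

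Auxin response factors bind the motif TGTCTC and, more strongly, TGTCGG. In the window from 250 bases before to 50 bases after the gene's start, read on both strands, TGTCTC stood in 11 of 74 members (14.9%), against 14.1% of all genes of the table, and TGTCGG in 2 (2.7%), against 5.3%. Within 1000 bases before the start, either motif stood in 58.1% of members and 48.8% of all genes. Of the 15 members that rose in Col-0, 3 held TGTCTC in the shorter window, all of them neighbours in the chromosome 1 array. Their matches are shown with 20 bases on each side, in the sense of the gene and with the motif in capitals, from RefSeq TAIR10.1, because they show how alike neighbours of the array are there. The letters are not particular to members that rose: SAUR37, which fell in both genotypes, and SAUR58 and SAUR74, which were not called with IAA, also held TGTCTC in this window, and SAUR62, SAUR66 and SAUR67 passed the filter only through their level with IAA.
SAUR62 (chr1:10303555-10303600, minus strand): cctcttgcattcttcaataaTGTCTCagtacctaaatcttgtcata
SAUR67 (chr1:10322310-10322355, plus strand): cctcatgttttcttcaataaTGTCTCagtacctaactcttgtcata
SAUR66 (chr1:10320821-10320866, plus strand): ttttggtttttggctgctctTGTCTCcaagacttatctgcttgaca
SAUR66 (chr1:10320880-10320925, plus strand): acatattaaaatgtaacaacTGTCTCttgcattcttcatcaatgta
The stretches of SAUR62 and SAUR67 were the same at 42 of 46 positions. SAUR34, SAUR35, SAUR76, SAUR77 and SAUR24 had neither motif within the shorter window, which says only that these letters are not there.

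Further members rose in only one genotype's test or by less. SAUR41 (AT1G16510), known from root and hypocotyl cell expansion, had 6.92, 8.57 and 6.23 FPKM in *siz1-2* IAA roots, against 6.72, 4.96 and 5.15 FPKM in *siz1-2* MS roots, which overlapped. In Col-0 it had 15.1, 13.8 and 10.6 FPKM with IAA, against 2.26, 5.74 and 5.15 FPKM on MS, a rise of 1.55 on the log2 scale (standard error 0.27, adjusted p = 0.0013 from limma) without overlap. The difference between these responses, −1.21, did not pass the test (adjusted p = 0.38 from limma). SAUR50 (AT4G34760), a light-regulated gene of cotyledon opening, had 10.5, 12.1 and 12.6 FPKM in *siz1-2* IAA roots, against 6.17, 9.62 and 7.97 FPKM in *siz1-2* MS roots. It had 13.2, 13.4 and 10.7 FPKM in Col-0 IAA roots, against 6.47, 8.03 and 6.63 FPKM in Col-0 MS roots. It rose by 0.55 in *siz1-2* (adjusted p = 0.0381 from limma) and by 0.78 in Col-0 (adjusted p = 0.00624), the *siz1-2* call being lost without any 1 of 5 libraries, *siz1-2* IAA replicate 1, 2 or 3 or *siz1-2* MS replicate 1 or 3 (0.39 to 0.63), and under 3 other scalings. SAUR14, another light-regulated gene, rose by 1.31 in Col-0 (adjusted p = 0.0119 from limma; 1.14 and not called without Col-0 MS replicate 1). SAUR9 rose in *siz1-2* by 0.93 (adjusted p = 0.0476 from limma) and SAUR26, tied to growth at warm temperature, in Col-0 by 1.24 (adjusted p = 0.0461). The call of SAUR26 was lost without any 1 of 7 libraries (*siz1-2* IAA replicate 1 and all MS libraries of both genotypes, at 1.02 to 1.43). That of SAUR9 was also lost without any 1 of 7 (all *siz1-2* IAA libraries, *siz1-2* MS replicates 1 and 2, Col-0 IAA replicate 3 and Col-0 MS replicate 3, at 0.82 to 1.1). Both calls were also lost under all 3 other scalings, without a filter and with voom. SAUR14 and SAUR26 passed the filter only through their level with IAA, which favours calls of a rise.

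The members that fell were all well above the filter on MS. SAUR37 (AT4G31320, chr4:15193709-15194665, minus strand) had 19.4, 24.4 and 17.4 FPKM in *siz1-2* IAA roots, against 65.4, 61.9 and 57.3 FPKM in *siz1-2* MS roots. In Col-0 it had 9.62, 16.8 and 13.7 FPKM with IAA, against 46.2, 47.4 and 53.1 FPKM on MS. The groups were far apart in both genotypes, and the log2 fold change of SAUR37 was −1.58 in *siz1-2* (standard error 0.18, adjusted p = 3.94e-05 from limma) and −1.87 in Col-0 (standard error 0.18, adjusted p = 8.02e-06). By mean FPKM, SAUR37, to which no specific role is assigned here, was exceeded by 11 members in Col-0 IAA roots and by SAUR32 alone in Col-0 MS roots. SAUR8 (AT2G16580) had 3.93, 5 and 6.29 FPKM in *siz1-2* IAA roots, against 8.15, 8.30 and 8.67 FPKM in *siz1-2* MS roots, and 5.79, 5.10 and 4.75 FPKM in Col-0 IAA roots, against 7.03, 8.80 and 10.5 FPKM in Col-0 MS roots. It fell by 0.69 in both genotypes (adjusted p = 0.0184 in *siz1-2* and 0.0197 in Col-0 from limma). The *siz1-2* call was lost without *siz1-2* IAA replicate 1 (−0.54) or 2 (−0.69) or any 1 *siz1-2* MS library (−0.71 to −0.67), and the Col-0 call without Col-0 IAA replicate 2 (−0.67) or Col-0 MS replicate 2 (−0.68) or 3 (−0.56).

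Neighbours in the chromosome 4 array went opposite ways. SAUR4 (AT4G34800) had 2.47, 2.00 and 3.11 FPKM in *siz1-2* IAA roots, against 9.14, 10.5 and 10.5 FPKM in *siz1-2* MS roots, and 4.35, 4.59 and 2.21 FPKM in Col-0 IAA roots, against 10.9, 11.2 and 10.4 FPKM in Col-0 MS roots. SAUR5 (AT4G34810), the next gene of the array, had 2.36, 4.48 and 4.64 FPKM in *siz1-2* IAA roots, against 10.9, 13.5 and 8.37 FPKM in *siz1-2* MS roots, and 3.01, 5.47 and 3.73 FPKM in Col-0 IAA roots, against 10.6, 11.7 and 9.61 FPKM in Col-0 MS roots. For both genes all IAA libraries lay below all MS libraries. SAUR4 had log2 fold changes of −1.82 in *siz1-2* and −1.48 in Col-0 (adjusted p = 8.83e-05 and 0.000431 from limma), and SAUR5 of −1.42 and −1.32 (adjusted p = 0.00178 and 0.00298). In the same array SAUR50 rose, as given above, and SAUR49 (0.13 in *siz1-2*, 0.52 in Col-0) and SAUR1 (0.78 and 1.18) did not pass the test in either genotype. SAUR2 and SAUR3 were below the filter. The summed FPKM of the array, 35.6, 38.5 and 47.2 in *siz1-2* IAA roots, 43.1, 55.2 and 47.6 in *siz1-2* MS roots, 46.4, 50.4 and 34.8 in Col-0 IAA roots and 42.6, 47.1 and 42.5 in Col-0 MS roots, overlapped between IAA and MS in both genotypes.

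**Figure D3:**
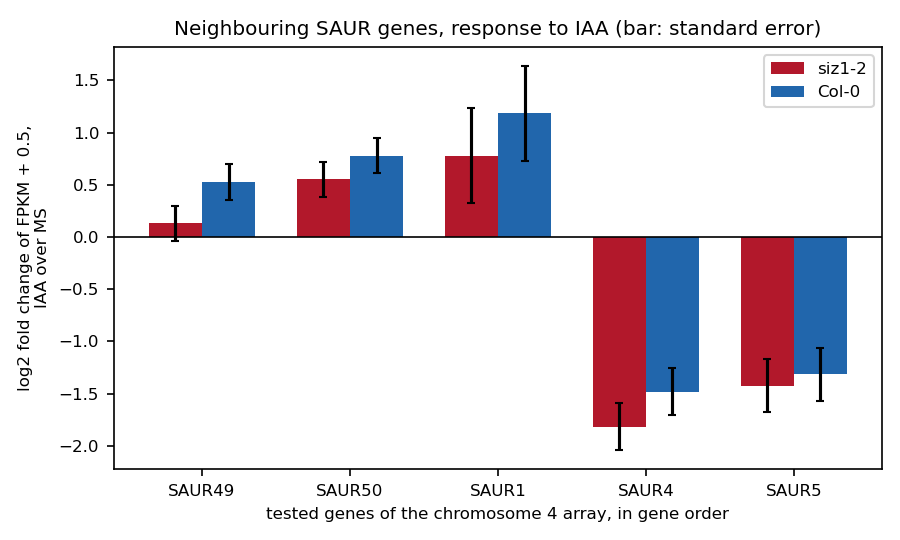
Response to IAA of the 5 tested genes of the chromosome 4 array in their order on the chromosome, as log2 fold change of FPKM + 0.5 (IAA over MS, bars) with its standard error (lines), for *siz1-2* (left bar) and Col-0 (right bar). SAUR4 and SAUR5 point down in both genotypes and SAUR50 points up.

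SAUR53, SAUR59, SAUR69 and AT5G01830 were called lower with IAA in *siz1-2* and not called in Col-0. SAUR53 (AT1G19840) had 4.07, 5.43 and 3.27 FPKM in *siz1-2* IAA roots, against 8.64, 11.3 and 8.68 FPKM in *siz1-2* MS roots. In Col-0 roots it had 7.83, 7.67 and 7.42 FPKM with IAA, against 5.84, 7.29 and 7.60 FPKM on MS, which overlapped. Its log2 fold change was −1.09 in *siz1-2* (standard error 0.18, adjusted p = 0.00102 from limma) and 0.14 in Col-0. SAUR59 (AT3G60690) had 12.9, 12.2 and 11.3 FPKM in *siz1-2* IAA roots, against 15.5, 19.8 and 22.2 FPKM in *siz1-2* MS roots, and 30.7, 22.4 and 23.2 FPKM in Col-0 IAA roots, against 16.1, 18.1 and 22.7 FPKM in Col-0 MS roots. It fell by 0.63 in *siz1-2* (adjusted p = 0.0213 from limma), and the call was lost without *siz1-2* IAA replicate 2 (−0.63) or 3 (−0.58) or *siz1-2* MS replicate 2 (−0.60) or 3 (−0.52). SAUR69 (AT5G10990) had 1.79, 2.07 and 1.46 FPKM in *siz1-2* IAA roots, against 4.91, 4.03 and 3.06 FPKM in *siz1-2* MS roots, and 4.07, 2.21 and 1.63 FPKM in Col-0 IAA roots, against 4.72, 4.67 and 4.48 FPKM in Col-0 MS roots, without overlap in either genotype. It fell by 0.97 in *siz1-2* (adjusted p = 0.0177 from limma) and had −0.78 in Col-0 (adjusted p = 0.0504), and its call was lost without *siz1-2* IAA replicate 1 or 3 or *siz1-2* MS replicate 1 or 2 (−0.98 to −0.83). AT5G01830 had 6.85, 6.91 and 5.98 FPKM in *siz1-2* IAA roots, against 11.9, 12.3 and 9.40 FPKM in *siz1-2* MS roots, and 9.52, 6.18 and 8.98 FPKM in Col-0 IAA roots, against 12.8, 12 and 10.3 FPKM in Col-0 MS roots. It fell by 0.72 in *siz1-2* (adjusted p = 0.0116 from limma; lost at −0.66 without *siz1-2* IAA replicate 3 and at −0.65 without *siz1-2* MS replicate 2). A call in one genotype and not in the other is not shown to be a difference between them, for which the test follows.

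The response to IAA was compared between the genotypes as the log2 response in *siz1-2* minus that in Col-0. SAUR45 was the only member called, 1 of 3 genes called over the whole table (0.016%), and its response was smaller in *siz1-2*. SAUR45 (AT2G36210, chr2:15186040-15186852, minus strand), to which no specific role is assigned here, had 17.1, 18.2 and 14.5 FPKM in *siz1-2* IAA roots, against 13.4, 15.4 and 11.3 FPKM in *siz1-2* MS roots, which overlapped. In Col-0 roots the 3 IAA libraries had 24.9, 18.6 and 20.2 FPKM, against 5.02, 5.48 and 5.71 FPKM on MS. The difference of response was −1.57 (standard error 0.22, adjusted p = 0.0369 from limma), and it was not called without any 1 of 10 libraries (−1.66 to −1.47), all but Col-0 IAA replicate 1 and *siz1-2* MS replicate 3. It was lost in 16 of 25 alternatives in all, among them the replicate block (adjusted p = 0.117 from limma), median centring (0.0812), median-of-ratios factors (0.0593), removal of the length trend (0.159) and voom (0.0935). The next by p were SAUR76 (−1.66, adjusted p = 0.113 from limma; −1.89 and 0.0281 without *siz1-2* MS replicate 2), SAUR53 (−1.24, adjusted p = 0.206), SAUR59 (−1.04, adjusted p = 0.241) and SAUR36 (−0.85, adjusted p = 0.313). SAUR36 (AT2G45210), a promoter of leaf senescence, had 18.6, 14.5 and 15.4 FPKM in *siz1-2* IAA roots, against 20, 20.8 and 24 FPKM in *siz1-2* MS roots. In Col-0 it had 33.7, 25.7 and 25.2 FPKM with IAA, against 17.0, 20.1 and 24.9 FPKM on MS, so that every IAA library lay below the MS libraries in *siz1-2* and above them in Col-0. Neither response of SAUR36 passed its own test (−0.41 in *siz1-2*, adjusted p = 0.101 from limma, and 0.44 in Col-0, adjusted p = 0.0815). For 34 of the 43 members (79.1%) the response was lower in *siz1-2* than in Col-0, against 40.0% of all tested genes, and the median difference was −0.34 for the members and 0.09 for all genes. The 43 include the 11 members that could pass the filter only through their level with IAA, and no count was made without them. At an unadjusted p under 0.05 there were 11 members, all lower in *siz1-2*, beside 11.3% of all genes in either direction. These counts changed with gene length: SAUR genes are short, and with a trend on length removed from each library 28 of 43 members were lower, against 51.4% of all genes. Without both libraries rich in green tissue markers (*siz1-2* IAA replicate 2 and Col-0 IAA replicate 1), 30 of 39 were lower, against 47.8% of all genes.

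**Figure D4:**
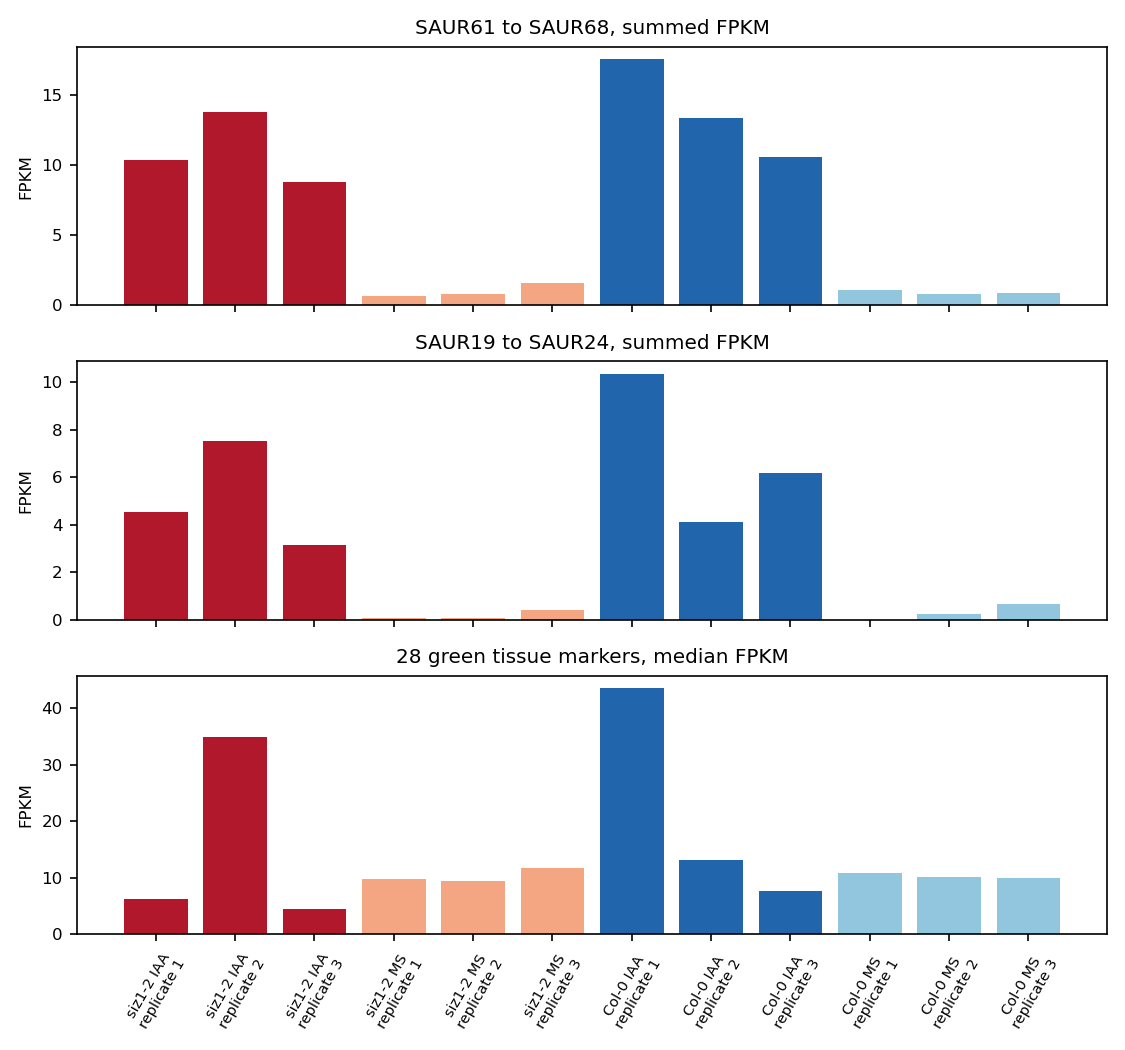
Bars give, for each of the 12 libraries, the summed FPKM of SAUR61 to SAUR68 (top), the summed FPKM of SAUR19 to SAUR24 (middle) and the median FPKM of 28 green tissue markers (bottom), on linear axes from 0. Both arrays are high in all 6 IAA libraries and near 0 in all 6 MS libraries, and within each IAA group the library with the highest green markers is also the highest in both arrays.

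Within each IAA group, most members below the filter were highest in the library with the highest green tissue markers. Within the *siz1-2* IAA group, 39 of the 68 SAUR genes with any reads there were highest in replicate 2, the library of the group with the highest green marker median, where 30.4% of all genes of the table were highest. Within the Col-0 IAA group, 43 of 68 were highest in replicate 1, likewise the highest in green markers, where 25.1% of all genes were highest. Among the members below the filter these shares were 20 of 26 in *siz1-2* IAA replicate 2 and 21 of 26 in Col-0 IAA replicate 1. Of the tested SAUR genes, 5, 19 and 18 were highest in *siz1-2* IAA replicates 1, 2 and 3. Replicate 3 had the lowest green marker median of that group (4.48 FPKM). In Col-0 IAA replicates 1, 2 and 3 these counts were 22, 17 and 3. The share over all genes below the filter was not computed. Over all genes, values of 1 to 200 fragments numbered 9489 in Col-0 IAA replicate 1, against 8100 and 7829 in its companions. They numbered 8559 in *siz1-2* IAA replicate 2, against 8334 and 8570 in its companions. SAUR15 (AT4G38850), which acts on lateral and adventitious root formation, had 0.117, 0.531 and 0.0611 FPKM in *siz1-2* IAA roots, against 0.0574, 0 and 0 FPKM in *siz1-2* MS roots, and 0.662, 0.0601 and 0.173 FPKM in Col-0 IAA roots, against 0 in all Col-0 MS libraries. SAUR20 had 0.182, 1.1 and 0.477 FPKM in *siz1-2* IAA roots and 2.38, 0 and 0.451 FPKM in Col-0 IAA roots, and was listed at 0 in all 6 MS libraries. SAUR71, a relative of SAUR41 and SAUR72, had 0.0554, 0.281 and 0.233 FPKM in *siz1-2* IAA roots, against 0, 0 and 0.0588 FPKM in *siz1-2* MS roots, and 0.693, 0.0572 and 0 FPKM in Col-0 IAA roots, against 0, 0.0566 and 0 FPKM in Col-0 MS roots. Each of these 3 genes peaked in the green-rich library of each genotype, at few fragments. SAUR10, a growth gene regulated by light and flowering factors, showed no such order against MS, with 0.155, 0.575 and 0.108 FPKM in *siz1-2* IAA roots, 0.153, 0.157 and 0.603 FPKM in *siz1-2* MS roots, 0.411, 0.426 and 0.256 FPKM in Col-0 IAA roots and 0.421, 0.316 and 0.679 FPKM in Col-0 MS roots. In all, 11 SAUR genes were listed at 0 in all 6 MS libraries. Every member had at least 1 fragment in some library, so reads with IAA follow for these 11 and are no result. SAUR2 and SAUR11 conversely had reads only on MS. The part of green tissue in these levels was not tested, and in bulk roots fewer cells of a type and less RNA per cell cannot be told apart.

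On MS, without added IAA, 2 members were higher and 1 was lower in *siz1-2* than in Col-0, where 2.75% of all tested genes were higher and 2.55% lower. These comparisons between the genotypes use the same libraries as the responses above. SAUR76 had 21.6, 11.8 and 17.7 FPKM in *siz1-2* MS roots, against 4.65, 4.66 and 6.13 FPKM in Col-0 MS roots, a log2 difference of 1.61 ± 0.20 (SE) with an adjusted p of 0.000381 from limma. SAUR45 had 13.4, 15.4 and 11.3 FPKM in *siz1-2* MS roots, against 5.02, 5.48 and 5.71 FPKM in Col-0 MS roots, a log2 difference of 1.23 ± 0.15 (SE) with an adjusted p of 0.000424 from limma. Both genes also rose with IAA in Col-0, and for both all *siz1-2* MS libraries lay between the Col-0 MS and Col-0 IAA libraries. SAUR38 (AT2G24400) had 2.18, 1.48 and 1.81 FPKM in *siz1-2* MS roots, against 3.01, 3.04 and 3.53 FPKM in Col-0 MS roots, a log2 difference of −0.68 with an adjusted p of 0.0468 from limma, and its call was lost without any 1 of 10 libraries (all but Col-0 IAA replicates 1 and 3, at −0.79 to −0.57) and under 3 other scalings. Same-numbered MS libraries of the 2 genotypes had weakly correlated deviations (r = 0.119 to 0.337), though the labels state no pairing. With the replicate number as a block over the MS libraries alone, 5 members were called. These were SAUR76, SAUR45 and SAUR30 (0.47, adjusted p = 0.0473 from limma) higher, and SAUR38 and SAUR72 (−0.89, adjusted p = 0.00995) lower in *siz1-2*. Without Col-0 IAA replicate 1, which enters this comparison only through the shared spread, 5 members were called as well. The share of all tested genes called was not computed for either of these fits. Over the 43 members the median log2 fold change was −0.003, against −0.08 over all tested genes. Median centring left 2 members higher and 0 lower, and 68.5% instead of 51.9% of all called genes were then higher.

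With IAA, the *siz1-2* roots had 6 members lower and 1 higher than the Col-0 roots, where 5.21% of all tested genes were lower and 3.91% higher. SAUR72 (AT3G12830), a relative of SAUR41, had 6.5, 7.19 and 12.3 FPKM in *siz1-2* IAA roots, against 33.6, 22.6 and 17.6 FPKM in Col-0 IAA roots, a log2 difference of −1.46 ± 0.27 (SE) with an adjusted p of 0.00512 from limma. On MS it had 6.95, 11.4 and 11.3 FPKM in *siz1-2* MS roots, against 17.0, 22.2 and 16.4 FPKM in Col-0 MS roots, where all *siz1-2* libraries lay below all Col-0 libraries (−0.89, adjusted p = 0.0877 from limma over all 12 libraries). The log2 difference with IAA was −1.03 for SAUR59 (standard error 0.17, adjusted p = 0.00233 from limma), −0.80 for SAUR53 (adjusted p = 0.015) and −0.78 for SAUR36 (adjusted p = 0.0097), from the values given above, without overlap. The call of SAUR53 was lost without *siz1-2* IAA replicate 1 (−0.79) or replicate 3 (−0.65), and that of SAUR36 without both libraries rich in green markers (−0.57, adjusted p = 0.0667 from limma). SAUR16 (AT4G38860), a light-regulated gene of cotyledons, had 0.601, 1.26 and 0.225 FPKM in *siz1-2* IAA roots, against 2.64, 1.73 and 1.75 FPKM in Col-0 IAA roots (−1.16, adjusted p = 0.0422 from limma). SAUR32 had 82.8, 72.2 and 65.4 FPKM in *siz1-2* MS roots, overlapping the 80.6, 77.6 and 74.0 FPKM in Col-0 MS roots. With IAA it had 69.6, 80.9 and 62.6 FPKM in *siz1-2* IAA roots, against 87.7, 116 and 98.5 FPKM in Col-0 IAA roots (−0.50, standard error 0.13, adjusted p = 0.0317 from limma). Of these weaker calls, that of SAUR16 was lost without any 1 of 9 libraries (all but *siz1-2* IAA replicate 2 and *siz1-2* MS replicates 1 and 2, at −1.24 to −0.85). That of SAUR32 was lost without any 1 of 5 (*siz1-2* IAA replicate 1 or 3, Col-0 IAA replicate 2 or 3, or Col-0 MS replicate 2, at −0.51 to −0.39). The one higher member was SAUR37, which fell with IAA in both genotypes: 19.4, 24.4 and 17.4 FPKM in *siz1-2* IAA roots, against 9.62, 16.8 and 13.7 FPKM in Col-0 IAA roots (0.61, adjusted p = 0.0469 from limma; lost without any 1 of 11 libraries, all but Col-0 IAA replicate 2, at 0.40 to 0.72, and at 0.27 without both libraries rich in green markers, adjusted p = 0.253). The count of 7 members fell to 3 without *siz1-2* IAA replicate 1 and to 4 without *siz1-2* IAA replicate 3 or without Col-0 MS replicate 2. In all, 36 of the 43 members (83.7%) were lower in *siz1-2* with IAA, against 46.7% of all tested genes. With the length trend removed this was 28 of 43, against 48.3% of all genes, and without both libraries rich in green markers it was 30 of 39, against 57.4% of all genes. Here too the 43 include the 11 members that could pass the filter only through their level with IAA.

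**Figure D5:**
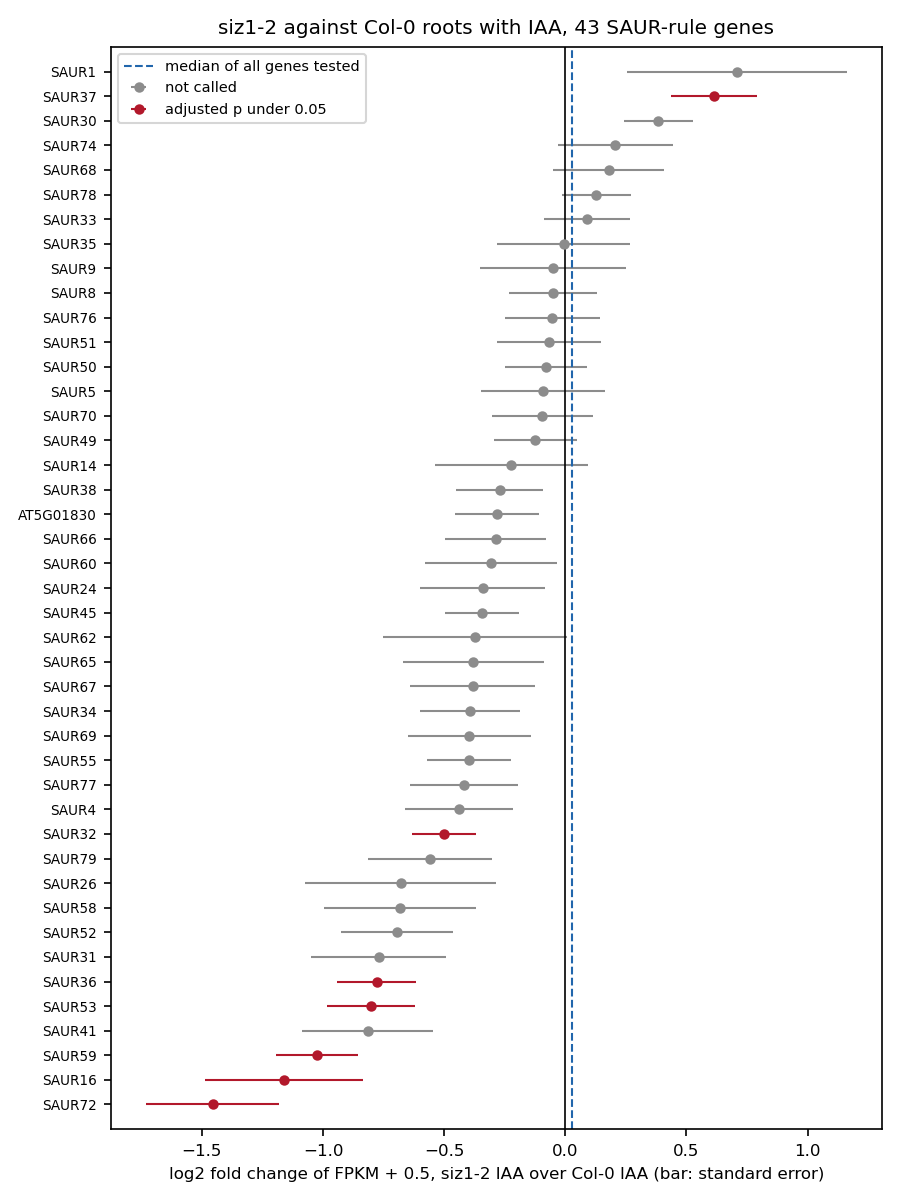
Log2 fold change of FPKM + 0.5 in *siz1-2* IAA roots over Col-0 IAA roots for the 43 tested members (points) with its standard error (bars), sorted from the highest to the lowest, with called genes in red and the median of all tested genes as a dashed line. Of the 43 points, 36 lie left of 0, with SAUR72, SAUR16 and SAUR59 the lowest.

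Of the genes through which SAUR19 acts, no H+-ATPase gene and a few phosphatase genes were called with IAA. Of 11 AHA genes, which encode plasma membrane H+-ATPases, 9 were tested, and none was called with IAA in *siz1-2* or in Col-0. At an unadjusted p under 0.05 from limma there were 3 and 2 genes, beside 31.6% and 31% of all tested genes. AHA2, the main H+-ATPase gene of roots, had 658, 726 and 782 FPKM in *siz1-2* IAA roots, 988, 1144 and 852 FPKM in *siz1-2* MS roots, 707, 536 and 530 FPKM in Col-0 IAA roots and 860, 866 and 595 FPKM in Col-0 MS roots. AHA2 was named after its values were seen, and its log2 fold changes of −0.46 in *siz1-2* and −0.38 in Col-0 did not pass the test (adjusted p = 0.0853 and 0.15 from limma). With IAA, AHA7 had 18.9, 19.1 and 25.6 FPKM in *siz1-2* roots, against 12.5, 13.1 and 14.1 FPKM in Col-0 roots, and was called higher (0.65 on the log2 scale, adjusted p = 0.017 from limma). Of the 9 genes of the PP2C.D phosphatases that SAUR proteins inhibit, all were tested, and with IAA 3 rose and 1 fell in *siz1-2* and 2 rose in Col-0, where 9.81% of all tested genes rose and 8.06% fell in *siz1-2* and 9.09% rose in Col-0. Without *siz1-2* IAA replicate 3 or *siz1-2* MS replicate 2, 2 genes of both lists were called in *siz1-2*, and in Col-0 5 were called without Col-0 IAA replicate 1 and 4 without Col-0 IAA replicate 3. PP2C.D1 had 4.41, 5.76 and 4.96 FPKM in *siz1-2* IAA roots, against 2.36, 0.825 and 1.3 FPKM in *siz1-2* MS roots, and 5.07, 4.00 and 5.53 FPKM in Col-0 IAA roots, against 0.951, 0.596 and 0.608 FPKM in Col-0 MS roots. Its log2 fold changes were 1.54 in *siz1-2* and 2.14 in Col-0 (adjusted p = 0.00101 and 6.2e-05 from limma), and those of PP2C.D3 were 0.74 and 0.54 (adjusted p = 0.000564 and 0.00517). PP2C.D2 rose (0.54, adjusted p = 0.0142 from limma) and PP2C.D7 fell (−0.75, adjusted p = 0.0162) in *siz1-2*. No gene of either list was called for the difference of response, where 0.016% of all tested genes were called. At an unadjusted p under 0.05 from limma there were 0 of 18, beside 11.3% of all tested genes.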

How the data were processed

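Root RNA was sequenced from 12 libraries in 4 groups, taken from each library's title and genotype and treatment labels. What the authors deposited is a single FPKM table, genes by libraries. How reads were aligned and counted, and on which build, is not stated in the labels or methods used here. Members and gene lists were chosen with earlier results of these data known.

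From the deposited FPKM, log2(FPKM + 0.5) was tested with limma 3.58.1 (R 4.3.3), with a trended prior variance and 4 group means over all 12 libraries, on genes at 1 FPKM or more in at least 3 libraries. P-values were adjusted (Benjamini-Hochberg) over the 18743 genes of each comparison, two-sided. The 5 comparisons were IAA against MS in each genotype, the difference of these responses, and the *siz1-2* to Col-0 comparison under each treatment. Fragments were recovered with numpy 2.4.6 and pandas 2.3.3, and sequences were read from RefSeq TAIR10.1 with Biopython 1.88 (Python 3.11.15). All 23853 gene IDs matched this annotation. The tests were checked on simulated data.

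Values in every library were given for the 6 called members with the largest change in each direction per IAA comparison, the 5 largest called per genotype comparison, the 5 with the smallest p for the difference of response, the 5 most abundant, and members with known roles. Alternatives were pseudocounts of 0.1 and 1, no filter or a filter of 5 FPKM, 3 other scalings, removal of a length trend, limma without the trend, fits on 2 groups, a replicate block, and leaving out single libraries or both libraries rich in green markers. Voom on the recovered fragments, the block over the MS libraries alone, and the counts of members below 0 were chosen after seeing the data. Same-numbered MS libraries of the genotypes had weakly correlated deviations (r = 0.119, 0.203 and 0.337), and differently numbered ones had r = −0.28 to 0.15. The labels state no pairing, and these values do not settle whether the numbers pair the libraries. In the other comparisons same-numbered libraries had r = −0.279 to 0.282.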

Additional observations from a re-analysis of the deposited data

Results flagged for a closer look

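For SAUR45 the response to IAA differed between the genotypes in the test of the difference itself, at −1.57 on the log2 scale in *siz1-2* minus Col-0 (adjusted p = 0.0369 from limma), but this call was lost in 16 of 25 alternatives (adjusted p from 0.0298 to 0.163 over all 25). For SAUR36 every IAA library lay below every MS library in *siz1-2* and above every MS library in Col-0, and the difference of −0.85 did not pass its test (adjusted p = 0.313 from limma). Neither response passed its own test (−0.41 in *siz1-2*, adjusted p = 0.101 from limma, and 0.44 in Col-0, adjusted p = 0.0815).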

How the results depend on the processing

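Over 53 results for single members and 1341 alternative comparisons, none reversed, 34 results kept their side of the threshold throughout, 18 lost a call somewhere and 1 gained one. With a filter of 5 FPKM, 12 members were called with IAA in Col-0. For the difference of response, 0 members were called without a filter, with median centring, with median-of-ratios factors, with the length trend removed, with voom and with the replicate block over all libraries. With the replicate block over the MS libraries alone, a pairing that the labels do not state, 5 members and 5 AHA or PP2C.D genes were called between the genotypes. With only the 2 compared groups, 3 members were called between the genotypes with IAA. Leaving out single libraries gave 14 to 26 members in *siz1-2*, 17 to 21 in Col-0, 0 to 1 for the difference, 2 to 5 on MS and 3 to 7 with IAA. For AHA and PP2C.D genes the same ranges, in this order, were 2 to 6, 2 to 5, 0 to 0, 0 to 3 and 0 to 2. For these genes on MS, the count of 0 became 1 with quantile normalization, median centring, median-of-ratios factors, the length trend removed, limma without the trend or voom, and 2 with only the 2 groups or without both libraries rich in green markers. With IAA their count of 1 became 3 with the length trend removed and 0 with only the 2 groups, and in Col-0 their count of 2 became 1 with only the 2 groups. The shares of all tested genes called were not computed for these alternatives, and the cause was not tested. Members at a few fragments per library set the limit of depth: the 31 below the filter were not tested.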
